A study of Mus musculus with 12 samples.

Results

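Ribosome biogenesis genes are the genes whose products make, fold and assemble ribosomes in the nucleolus and export them. The 45 genes described here were listed by symbol from that machinery, and every probe set that the array annotation assigns to 1 of the symbols was taken. Earlier results of these data were known when the list was made. They are covered by 89 of the 45101 probe sets on the array, and 83 of these passed the filter on dim signal. One probe set was taken to stand for each gene, which left 44 of the 45 genes among the 11815 genes tested. The remaining gene, Mrto4, had a single probe set annotated with 3 symbols and was not analysed here.

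The series holds 12 expression arrays of mouse cells in 4 groups of 3. The labels give 2 genotypes: knockout mice, which lack the Stat5a and Stat5b genes in blood cells, and control mice, which have them. STAT5A and STAT5B are transcription factors that act below cytokine receptors, among them the receptor for GM-CSF that the study's title names. Cells of each genotype were either treated or left untreated, giving the groups knockout treated, knockout untreated, control treated and control untreated. The labels write the treatment as with or without GMP and do not expand the abbreviation. Some titles put it next to the genotype with a separate plus or minus sign, and GMP is also the usual short form of granulocyte and monocyte progenitor, while the treatment field uses it for what was given. The labels thus leave unsettled whether it names an agent or the cells, and do not say what the agent was. They name no promoter that drove the deletion, no purification, no dose and no length of treatment. Each of 3 array dates in the titles holds 1 array of every group. Separate animals are not stated for the arrays of a group, so a p-value here covers the spread between these samples, which may be technical, and the number of arrays limits the precision.

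Ribosomes are made in the nucleolus, where RNA polymerase I copies the ribosomal RNA genes into a long precursor. Small nucleolar ribonucleoproteins, or snoRNPs, then guide the chemical modification of that precursor: box C/D particles add methyl groups and box H/ACA particles turn uridine into pseudouridine. Assembly factors cut and fold the RNA along separate small-subunit and large-subunit paths. The machinery consumes much of the energy of a dividing cell, many of its genes are known targets of the transcription factor MYC, and its genes are known to be expressed at lower levels as blood progenitors stop dividing and mature.

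Several facts of the whole series bear on every value below. Signal of Stat5a was 26.7 to 101 on the 6 knockout arrays and 375 to 1147 on the 6 control arrays, and signal of Stat5b was 1.80 to 60.5 on knockout arrays and 287 to 1531 on control arrays. The 4 arrays of date 2 stood apart in the ratio of the 3' to the 5' control probe set of beta-actin. That ratio was 20.9 to 266 on them and 1.14 to 2.05 on the arrays of dates 1 and 3. Degraded RNA can raise it, but the cause of the high values on date 2 was not tested. For Gapdh the ratio spanned 28.2 to 80.7 on date 2, against 1.56 to 3.90 elsewhere. The title of the knockout treated array of date 2 also carries a different tag from the other 3 of its date. Each date holds all 4 groups and entered the fit as a block. Array by array, the signals had been scaled to a common mean, so each change is relative to the rest of the array.

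Markers of a granulocyte and monocyte progenitor were present in all 4 groups. Of 17 such genes 16 passed the filter, and the neutrophil granule genes Mpo, Elane, Prtn3 and Ctsg were at 6216.5 or more on every array. The summed signal of the 16 was 112230 to 188810 in knockout treated, 109890 to 232740 in knockout untreated, 111130 to 290930 in control treated and 112740 to 229900 in control untreated cells. Summed markers of other cells are given for the genes of each list that passed the filter, with no test made of the sums. The 3 of 8 T and NK lineage genes that passed the filter summed to 1923 to 5761 in knockout treated against 8161 to 9829 in knockout untreated cells, and to 1610 to 4856 in control treated against 7872 to 8882 in control untreated cells. The 5 of 8 macrophage genes that passed summed to 11896 to 31907 in knockout treated against 8560 to 23665 in knockout untreated cells, and to 11853 to 41633 in control treated against 7714 to 27370 in control untreated cells. Nkg7 made up most of the first sum on every array, with Cd3e, Cd3g, Cd4 and Gzma below the filter, and most of the other was Csf1r, which is also on the progenitor list, with C1qa, C1qb and Mertk below the filter. Of 5 eosinophil genes 4 passed, and they summed to 374 to 1533 in knockout treated against 764 to 3111 in knockout untreated cells, and to 410 to 1254 in control treated against 802 to 2658 in control untreated cells. The 4 of 7 B lineage genes that passed summed to 5679 to 13679 in knockout treated against 4379 to 6963 in knockout untreated cells, higher with treatment on every date, and to 1858 to 3356 in control treated against 3170 to 4189 in control untreated cells, so every knockout array was above every control array. Most of that sum was Ighm on every array. The 5 of 6 mast cell and basophil genes that passed summed to 3922 to 7329 in knockout treated against 5115 to 8032 in knockout untreated cells, lower with treatment on every date, and to 4595 to 8506 in control treated against 6560 to 10104 in control untreated cells. Among them the mast cell protease gene Cpa3 fell in treated knockout cells, by 1.23 on the log2 scale (limma adjusted p = 0.0484). In control cells its change was alike, at -1.28 (limma adjusted p = 0.0552). Of the 5 genes, 4 had a change below 0 in knockout and 3 in control cells. Elsewhere on the marker lists, Csf2rb rose in knockout (1.51) and control cells (1.66), and Ptprc rose in knockout cells (0.92). Irf8 (-1.39) and Car1 (-1.21) fell in control cells, all by limma with an adjusted p under 0.05. The 5 of 9 erythroid genes that passed summed to 2009 to 5330 in knockout treated against 2748 to 4903 in knockout untreated cells, and to 3806 to 6342 in control treated against 3498 to 6311 in control untreated cells. The 5 of 7 megakaryocyte and platelet genes that passed summed to 1043 to 4950 in knockout treated against 1074 to 1932 in knockout untreated cells, and to 1348 to 2568 in control treated against 1650 to 3012 in control untreated cells. The 3 of 7 stroma and endothelium genes that passed summed to 181 to 330.0 in knockout treated against 340 to 431 in knockout untreated cells, and to 207 to 553 in control treated against 229 to 579 in control untreated cells, lower with treatment on every date in both genotypes. The part of all these markers in the results below was not tested. In these bulk samples, fewer cells of a type and less RNA per cell cannot be told apart.

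Promoter sequences are shown because most of the genes had lower signals with treatment and because MYC and STAT factors each have a known DNA motif. RefSeq promoters of build GRCm38.p6, running from 250 bases before to 50 bases after the start, were found for 38 of the 45 genes. The E-box CACGTG, the motif that MYC binds with its partner MAX, occurred in 9 of the 38 windows (23.7%), in 11.8% of 9623 tested genes with a promoter and in 8.09% of all 27025 promoters. In 8 of the 9 the E-box began downstream of the start, and the 250 bases upstream held it in Nop2 alone, 2.63% of the 38 against 9.99% of tested genes. The STAT palindrome TTCNNNGAA occurred in 3 of the 38 windows (7.89%) and in 8.34% of tested genes. Both motifs are palindromes, so 1 search covers both strands, and they share no positions with each other here. Of the 7 genes that fell in treated knockout cells and have a promoter in the table, Nop2 held the E-box and 0 held the STAT palindrome. A match is a description of the letters and not evidence of binding.

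The 250 bases upstream of Nop2 are at chr6:125131633-125131882 on the + strand, with the E-box in capitals beginning 60 bases before the start. For comparison, 30-base windows around the E-box follow for Tsr1 (chr11:74898092-74898121, + strand), Wdr43 (chr17:71616220-71616249, + strand), Pes1 (chr11:3963965-3963994, + strand) and Grwd1 (chr7:45830740-45830769, - strand), where it lies after the start. The last 2 lines show the STAT palindrome, in capitals, for Polr1b (chr2:129100971-129101000, + strand) and Nop58 (chr1:59684950-59684979, + strand), where it lies before the start.
Nop2: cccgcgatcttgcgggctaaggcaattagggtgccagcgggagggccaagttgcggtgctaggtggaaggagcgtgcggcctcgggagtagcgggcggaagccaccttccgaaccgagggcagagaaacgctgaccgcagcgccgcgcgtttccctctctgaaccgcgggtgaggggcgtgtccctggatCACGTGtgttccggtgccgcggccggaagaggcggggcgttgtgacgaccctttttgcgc
Tsr1: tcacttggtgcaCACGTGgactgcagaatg
Wdr43: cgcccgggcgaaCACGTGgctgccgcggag
Pes1: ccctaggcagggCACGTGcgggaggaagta
Grwd1: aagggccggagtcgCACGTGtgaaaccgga
Polr1b: ggaactacatTTCCCAGAAggccacggggt
Nop58: gtgacgttacTTCCCAGAAttcttagagaa

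Several ribosome biogenesis genes fell with treatment in knockout cells. Of the 44 genes, 8 fell in knockout treated against knockout untreated cells (18.2%) and 0 rose, while 4.21% of all 11815 genes fell and 6.46% rose. A gene counts as fallen or risen where its adjusted p is under 0.05 by limma with Benjamini-Hochberg adjustment over all genes. The 8 were the H/ACA proteins Dkc1 and Nhp2, the snoRNP scaffold Nolc1, the large-subunit factors Wdr12, Nop2, Nop16 and Rrp1b, and the spermidine synthase Srm. Counting direction alone, 42 of the 44 had a fitted change below 0 (95.5%), against 51.8% of all genes. The median change was -0.64 on the log2 scale for the 44 genes and -0.02 for all genes; a log2 difference of 1 is a factor of 2 in signal.

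The 3 knockout treated arrays lay entirely below the 3 knockout untreated arrays for 14 of the 44 genes (31.8%), against 9.63% of all genes. The knockout treated array was the lower on all 3 dates for 34 of the 44 (77.3%), against 26.6% of all genes. The count of 8 was 1, Dkc1, without array date as a block, and 3 to 13 when single arrays were left out. Dkc1, Nhp2 and Wdr12 stayed past the threshold in all 12 of those fits, Srm in 9, Nolc1 and Rrp1b in 8, Nop16 in 7 and Nop2 in 1. Without the knockout treated array of date 2, whose title differs, 6 genes fell. Shares of all genes are not given for these refits, so their counts are not set against a background. An unadjusted p under 0.05 with a lower signal was found for 22 of the 44 (50%) and for 13.1% of all genes.

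In control cells, 1 of the 44 genes fell with treatment, Nhp2, and 0 rose; 2.51% of all genes fell and 4.05% rose. That share of 2.27% is close to the background. The fitted change was below 0 for 33 of the 44 (75%), against 53.6% of all genes, and the median was -0.31 against -0.04 over all genes. The 3 control treated arrays lay entirely below the 3 control untreated arrays for 3 genes (6.82%), against 7.57% of all genes. Of the 44 genes, 22 were lower on every date (50%), against 27.7% of all genes. In control cells an unadjusted p under 0.05 with a lower signal was found for 6 of the 44 (13.6%) and for 11.8% of all genes.

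**Figure D1:**
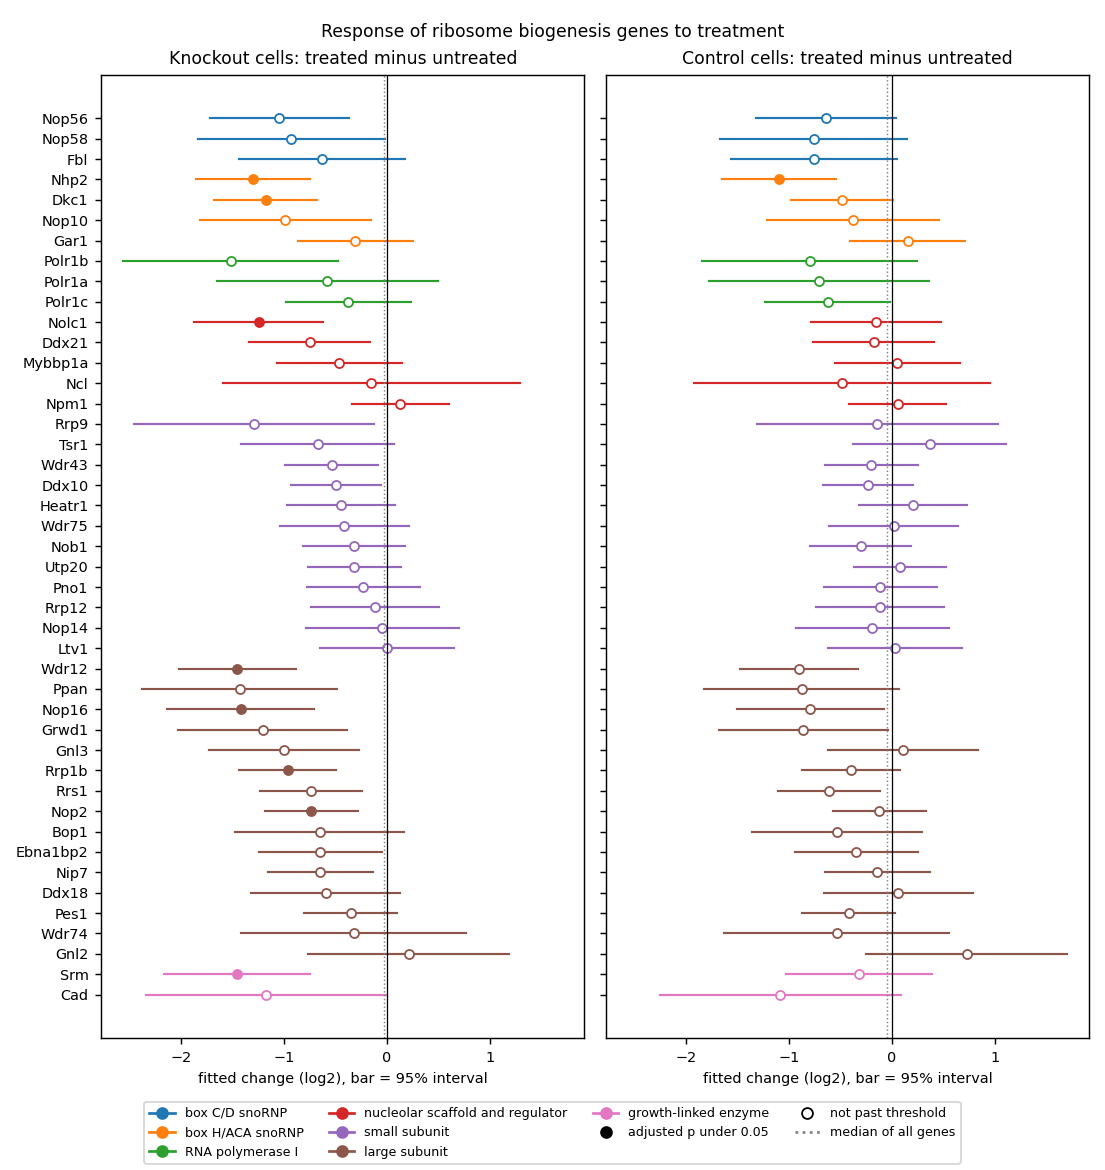
Fitted treatment response of each of the 44 genes, as treated minus untreated in log2 units, in knockout cells (left) and control cells (right); points are limma estimates, bars their 95% intervals, colours the role groups, and filled points have an adjusted p under 0.05. In knockout cells 42 of 44 points lie left of 0 with 8 filled, and in control cells 33 lie left of 0 with 1 filled.

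Among the box H/ACA proteins, which bind the RNAs that guide pseudouridine formation, 2 of 4 fell in treated knockout cells and the median change was -1.08. Dkc1 encodes dyskerin, the pseudouridine synthase itself. Its signal was 3696, 3517 and 4819.8 on the knockout treated arrays of dates 1, 2 and 3, against 9095, 9729 and 8238 on the knockout untreated arrays. In control cells it was 7688, 7086 and 5898 on treated arrays, against 9808, 10701 and 8379 on untreated arrays. Treated and untreated arrays did not overlap in either genotype, and the 3 knockout treated arrays were the lowest of all 12. The change was -1.18 ± 0.22 in knockout cells (SE, limma adjusted p = 0.011) and -0.48 ± 0.22 in control cells (adjusted p = 0.232). Dkc1 had 2 other passing probe sets, at -1.11 (adjusted p = 0.0374 by limma over all probe sets) and -0.71 (adjusted p = 0.20) in knockout cells. In control cells those sets gave -0.52 and -0.08 and were not past the threshold.

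Nhp2, a core protein of the same particle, was the 1 gene that fell in both genotypes. Its signal was 879.5, 511 and 1638 on knockout treated arrays, against 2240.3, 1587 and 3181 on knockout untreated arrays. It was 1041, 372 and 1439 on control treated arrays, against 2063, 1135 and 2401 on control untreated arrays. Within each date the treated array was the lower in both genotypes, although the groups overlapped across dates. The change was -1.30 ± 0.25 in knockout cells (limma adjusted p = 0.0113) and -1.10 ± 0.25 in control cells (limma adjusted p = 0.0320). The control call was kept in 4 of the 12 fits that left out 1 array each. A second Nhp2 probe set that passed the filter gave -0.67 in knockout and -0.34 in control cells and was not past the threshold.

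Nop10, the smallest protein of the particle, read 10054, 8158 and 9840.0 on knockout treated arrays, against 13450.5, 27812 and 16756 on knockout untreated arrays. Those groups did not overlap, but the change of -0.98 ± 0.37 was not past the threshold (limma adjusted p = 0.125). In control cells Nop10 read 10088, 31724 and 9071 on treated arrays, against 13744, 34972 and 13259.6 on untreated arrays, a change of -0.38 ± 0.37. Its other probe set was past the threshold in knockout cells, at -1.76 ± 0.36 (limma adjusted p = 0.0173 over all probe sets). In control cells that set gave -1.10 ± 0.36 (limma adjusted p = 0.116 over all probe sets).

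The 3 core proteins of box C/D particles, the methylation guides, had fitted changes of -0.63 to -1.04 in knockout cells and -0.64 to -0.76 in control cells, and 0 passed the threshold in either. Fibrillarin, encoded by Fbl, is the methyltransferase. Its signal was 3982, 2075 and 6192 on knockout treated arrays, against 7089, 3238 and 8223 on knockout untreated arrays, and 3201, 706 and 5315 on control treated arrays, against 7319, 1089 and 7285 on control untreated arrays. It was the lower within each date in both genotypes, but date 2 was below the other dates and the groups overlapped. The limma changes were -0.63 ± 0.36 in knockout cells (adjusted p = 0.306) and -0.75 ± 0.36 in control cells (adjusted p = 0.251).

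Nop56, a scaffold protein of the same particle, came nearer the threshold in knockout cells. It read 1195, 535 and 989 on knockout treated arrays, against 2563, 1131 and 1952 on knockout untreated arrays. It read 1001, 546 and 969.6 on control treated arrays, against 2537, 444 and 1793 on control untreated arrays. The knockout values were lower on every date, and the control values were lower on dates 1 and 3. The changes were -1.04 ± 0.30 in knockout cells (limma adjusted p = 0.0561) and -0.64 ± 0.30 in control cells (limma adjusted p = 0.246).

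The 3 subunits of RNA polymerase I, the enzyme that copies the ribosomal RNA genes, all had changes below 0 in both genotypes, and 0 passed the threshold. The medians were -0.58 in knockout and -0.71 in control cells. Polr1a, the largest subunit, read 801, 908 and 1040.0 on knockout treated arrays, against 1499, 1396 and 1214 on knockout untreated arrays, which did not overlap. Its control values were 964, 178 and 975 on treated arrays, against 1315, 438 and 1336 on untreated arrays, with date 2 far below the other dates. Its change was -0.58 ± 0.48 in knockout cells (limma adjusted p = 0.493). Other passing Polr1a probe sets gave -0.21 and 0.02 in knockout and -0.69 and -0.40 in control cells.

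Polr1c, a subunit shared with RNA polymerase III, read 1749.5, 786 and 2359.8 on knockout treated arrays, against 2404, 1162 and 2555 on knockout untreated arrays. It read 1411, 366 and 1850.1 on control treated arrays, against 2197, 916 and 1781 on control untreated arrays. The changes were -0.38 ± 0.27 in knockout cells and -0.62 ± 0.27 in control cells (limma adjusted p = 0.423 and 0.206). A second passing Polr1c probe set gave -0.14 in knockout and 0.10 in control cells. Polr1b, the other large catalytic subunit, is named after its values were seen because its fitted change in knockout cells, -1.51 ± 0.47, was the lowest of the 44. It read 242, 529 and 519.5 on knockout treated arrays, against 1180.4, 1207 and 1165 on knockout untreated arrays. The groups did not overlap, and the limma adjusted p was 0.0681.

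Of the 5 nucleolar scaffold and regulator genes, 1 fell in treated knockout cells. Nolc1 encodes a phosphoprotein that shuttles between nucleolus and Cajal bodies and binds both snoRNP classes. It read 1869, 518 and 818 on knockout treated arrays, against 2572, 2045 and 2067 on knockout untreated arrays, with no overlap. In control cells it read 2225, 1249 and 1174 on treated arrays, against 2424, 1079 and 1725 on untreated arrays, which overlapped. The change was -1.25 ± 0.28 in knockout cells (limma adjusted p = 0.0226) and -0.15 ± 0.28 in control cells (limma adjusted p = 0.796). Its 2 other passing probe sets gave -1.92 and -1.30 in knockout cells and -1.48 and 0.11 in control cells, and neither was past the threshold.

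Nucleophosmin and nucleolin, long known as major proteins of the nucleolus, did not pass the threshold. Npm1, which encodes the histone chaperone nucleophosmin, read 17768, 29985 and 15750.4 on knockout treated arrays, against 14268, 30110.0 and 14924 on knockout untreated arrays. On control arrays it read 17099.6, 38564 and 13746 with treatment, against 15481, 38839.8 and 13392 without. Date 2 gave about the same values within each genotype, and the change was 0.13 in knockout cells, with a 95% interval of -0.34 to 0.60, and 0.06 in control cells, with an interval of -0.41 to 0.53. Npm1 and Gnl2, a large-subunit GTPase, were the 2 genes with a fitted change above 0 in both genotypes, which depended on the probe set. A second passing Npm1 set gave -0.18 in knockout and -0.62 in control cells, while the other 2 Gnl2 sets gave -0.22 and 0.37 in knockout and 0.03 and 0.14 in control cells.

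Ncl encodes nucleolin, which binds ribosomal RNA precursors. It read 12326, 5893 and 8563 on knockout treated arrays, against 11988, 6789 and 10444 on knockout untreated arrays. It read 10987, 584 and 9914 on control treated arrays, against 13063, 1388 and 9766 on control untreated arrays. The 2 control arrays of date 2 were far below all others, and the interval of the change in knockout cells, -1.59 to 1.29, was the widest of the 44.

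Of the 12 small-subunit factors, 0 passed the threshold in knockout cells, where 4.21% of all genes fell. In a list of 12, a count of 0 is near that share. All 12 had a fitted change below 0, against 51.8% of all genes, with a median of -0.36. They spanned -1.29 for Rrp9 to just under 0 for Ltv1, which are named after their values were seen. In control cells 7 of 12 were below 0, with a median of -0.11. Tsr1, a GTPase-like factor of late small-subunit assembly, read 3523, 5039.7 and 5054 on knockout treated arrays, against 5336, 11166 and 6104 on knockout untreated arrays. It read 6018, 24546 and 5861 on control treated arrays, against 5473, 13188 and 5597 on control untreated arrays. It was lower with treatment on all 3 dates in knockout cells and higher on all 3 in control cells. The changes were -0.67 ± 0.33 and 0.37 ± 0.33 (limma adjusted p = 0.236 in knockout and 0.568 in control cells), and their difference of -1.04 ± 0.47 had an unadjusted p of 0.0531 in the limma fit. A second Tsr1 probe set gave -0.75 in knockout and -0.16 in control cells.

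Heatr1, a member of the complex that starts small-subunit assembly on the nascent precursor, read 1669.7, 1679 and 2465 on knockout treated arrays, against 2475, 2616 and 2696 on knockout untreated arrays, which did not overlap. It read 2728, 4747 and 3791 on control treated arrays, against 2756, 3793 and 3082 on control untreated arrays. The change was -0.44 ± 0.24 in knockout cells (limma adjusted p = 0.266) and 0.20 ± 0.24 in control cells (limma adjusted p = 0.668).

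The large-subunit factors held 4 of the 8 genes that fell, 26.7% of those tested, against 4.21% of all genes. Small-subunit and large-subunit factors were not tested against each other. Of 15 tested, 14 had a change below 0 in knockout cells, with a median of -0.73, and 12 in control cells, with a median of -0.42. Wdr12, which forms the PeBoW complex with Pes1 and Bop1 and acts in processing of the large-subunit RNA, had the lowest adjusted p. It read 1844, 487 and 1308 on knockout treated arrays, against 3481, 2028 and 3494 on knockout untreated arrays. It read 2219.5, 1016 and 1332 on control treated arrays, against 3751, 1649 and 3197 on control untreated arrays. The knockout groups did not overlap, and the control groups did. The change was -1.45 ± 0.26 in knockout cells (limma adjusted p = 0.00856) and -0.90 ± 0.26 in control cells (limma adjusted p = 0.0657). A second passing Wdr12 probe set gave -0.80 in knockout and -0.34 in control cells and was not past the threshold. The complex partners of Wdr12, Pes1 and Bop1, named after their values were seen, had changes of -0.35 and -0.65 in knockout cells and did not pass the threshold. Second passing probe sets went the other way, at 0.01 for Pes1 and 0.88 for Bop1 in knockout cells. In control cells those sets gave 0.25 and 1.05.

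Nop2, an rRNA methyltransferase whose promoter is printed above, read 859.9, 662 and 532 on knockout treated arrays, against 1292, 1213 and 906 on knockout untreated arrays. It read 934, 1156 and 674 on control treated arrays, against 1121, 1143 and 734 on control untreated arrays. The knockout groups were narrowly apart, and the control groups overlapped. The change was -0.73 ± 0.20 in knockout cells (limma adjusted p = 0.0474) and -0.12 ± 0.20 in control cells (limma adjusted p = 0.777). Of the 8 calls this was the nearest to the threshold.

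Nop16, a nucleolar protein of early large-subunit particles, read 953, 164 and 982 on knockout treated arrays, against 2002, 769 and 2056 on knockout untreated arrays. It read 1185, 118 and 981 on control treated arrays, against 1840.3, 271 and 1523 on control untreated arrays. Date 2 was low in all 4 groups, so the groups overlapped, but the treated array was the lower within each date. The change was -1.42 ± 0.32 in knockout cells (limma adjusted p = 0.0219) and -0.79 ± 0.32 in control cells (limma adjusted p = 0.174). A second passing Nop16 probe set gave -0.60 in knockout and 0.29 in control cells and was not past the threshold.

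Rrp1b, a nucleolar protein of large-subunit processing, read 714, 1004 and 853 on knockout treated arrays, against 1461, 1522 and 2085 on knockout untreated arrays. It read 1231, 1368 and 1177 on control treated arrays, against 1537, 1667 and 1786 on control untreated arrays. Treated and untreated arrays were apart in both genotypes, and the knockout treated arrays were the lowest of the 12. The change was -0.96 ± 0.21 in knockout cells (limma adjusted p = 0.0203) and -0.40 ± 0.21 in control cells (limma adjusted p = 0.305). Other passing Rrp1b probe sets gave -0.68 and -0.70 in knockout and -0.03 and -0.41 in control cells, and neither was past the threshold.

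Gnl3, the nucleolar GTPase nucleostemin, read 3009, 2438 and 4041 on knockout treated arrays, against 6091, 6212 and 6303 on knockout untreated arrays, with no overlap. It read 5164, 11406 and 5009.7 on control treated arrays, against 6534, 6763 and 5382 on control untreated arrays, where date 2 ran the other way. The change was -1.0 ± 0.33 in knockout cells (limma adjusted p = 0.0803) and 0.10 ± 0.33 in control cells. Ebna1bp2, a partner of several large-subunit factors, read 3490.3, 1376 and 1854 on knockout treated arrays, against 3437, 3215 and 3098 on knockout untreated arrays, so it was not lower on date 1. Its control values were 2631, 2422 and 1970.1 with treatment, against 3166, 2932 and 2773 without, and its changes were -0.64 ± 0.27 and -0.34 ± 0.27 in knockout and control cells, both short of the threshold.

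The 2 enzymes linked to growth are not ribosome assembly factors themselves: Srm makes spermidine, and Cad carries out the first steps of pyrimidine synthesis. Srm read 5749, 2501 and 2103 on knockout treated arrays, against 9335, 12967 and 5205 on knockout untreated arrays. It read 7596, 9349 and 3330.0 on control treated arrays, against 8500.5, 10320.0 and 5254 on control untreated arrays. It was lower with treatment on every date in both genotypes, by the most in the knockout cells of date 2. The change was -1.46 ± 0.32 in knockout cells (limma adjusted p = 0.0194) and -0.32 ± 0.32 in control cells (limma adjusted p = 0.602).

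Cad read 883, 469.8 and 304 on knockout treated arrays, against 1803, 1003 and 831 on knockout untreated arrays. It read 946, 96.6 and 409 on control treated arrays, against 1819, 224 and 955 on control untreated arrays. The differences were alike on every date and in both genotypes, at -1.17 ± 0.52 and -1.08 ± 0.52, but were not past the threshold (limma adjusted p = 0.187 in knockout and 0.256 in control cells). A second Cad probe set passed it in knockout cells, at -1.64 ± 0.27 (limma adjusted p = 0.00668 over all probe sets). In control cells that set gave -1.05 ± 0.27 (limma adjusted p = 0.0571 over all probe sets). Without Srm and Cad, 7 of the remaining 42 genes fell in treated knockout cells (16.7%) and the median was -0.63.

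**Figure D2:**
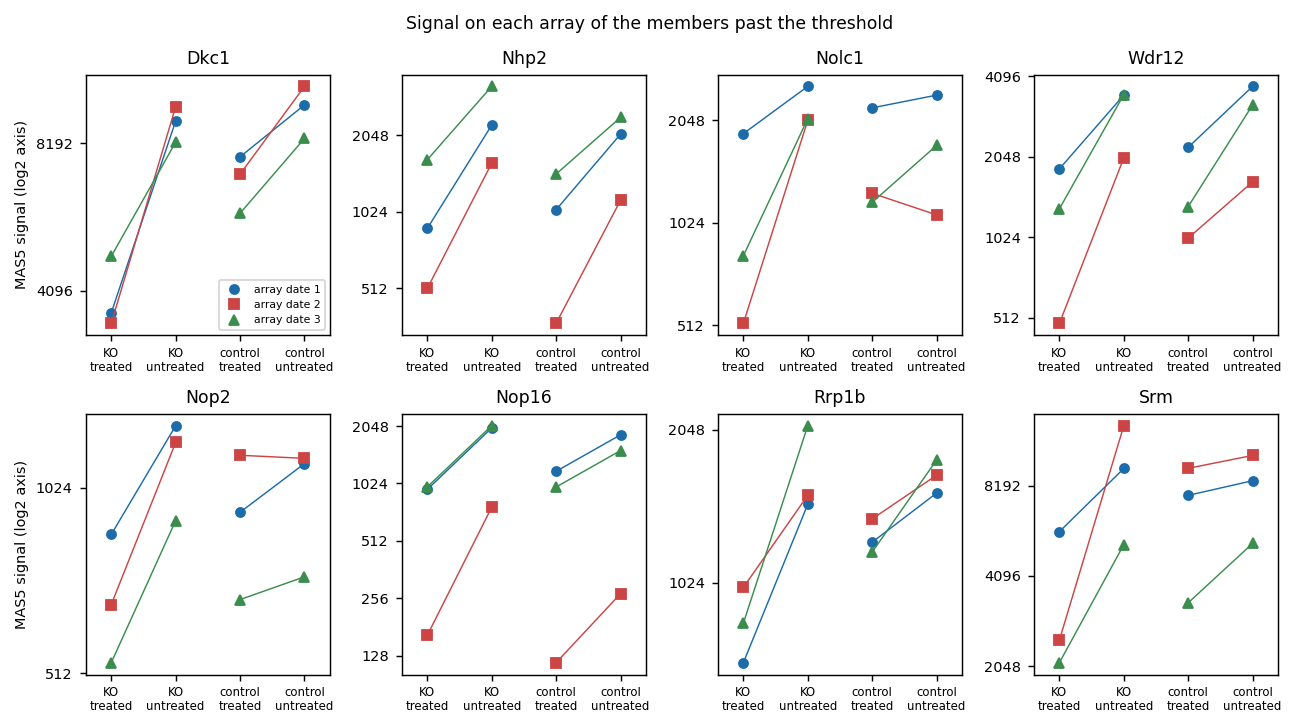
Deposited signal on each of the 12 arrays, on a log2 axis, for the 8 genes that fell in treated knockout cells; lines join the treated and untreated array of 1 genotype on 1 date, and colours and shapes mark the 3 dates. Every knockout line rises towards the untreated array, and Dkc1, Nolc1, Wdr12, Nop2 and Rrp1b have knockout treated values that lie wholly below the knockout untreated ones.

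The 3 dates gave the same direction. Median changes of the 44 genes in knockout cells were -0.50, -0.80 and -0.60 on dates 1, 2 and 3, with 37, 41 and 42 genes below 0. In control cells the medians were -0.29, -0.26 and -0.35, with 36, 29 and 35 genes below 0. Medians over all genes stayed between -0.06 and 0.02 in both genotypes on the 3 dates. With the arrays of date 2 left out, 11 of the 44 genes fell in treated knockout cells and 3 in treated control cells. Leaving out date 1 or date 3 gave 0 in both genotypes, with 39 or more of the 44 still below 0 in knockout cells. The share of all genes that fell in these fits is not given here, so the counts are not set against a background.

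**Figure D3:**
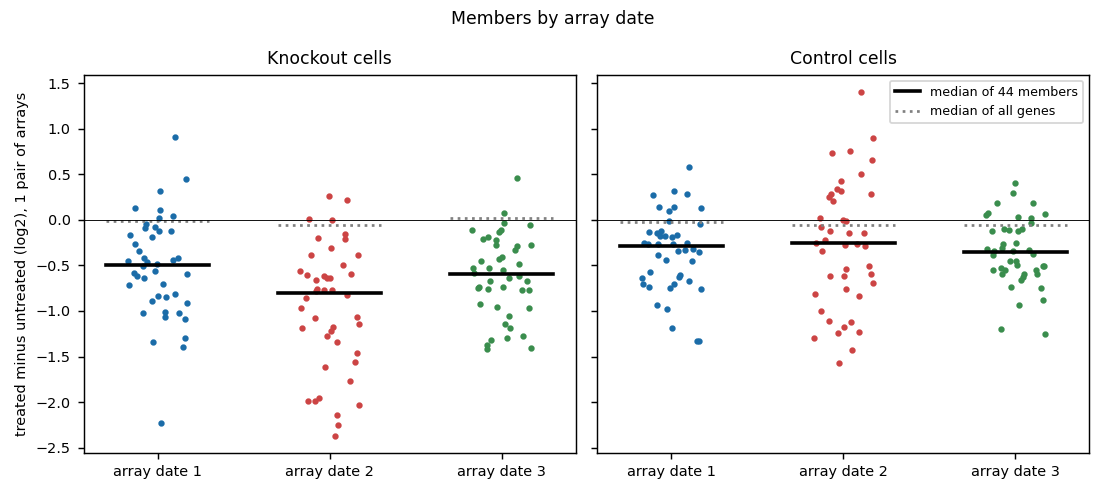
Treated minus untreated signal (log2) of the 44 genes on each array date, from 1 pair of arrays per point, in knockout cells (left) and control cells (right); solid bars are the median of the 44 genes and dotted bars the median of all genes tested. The solid bars lie at -0.50 to -0.80 in knockout cells and at -0.26 to -0.35 in control cells, and the dotted bars lie near 0.

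Array by array, the median signal of the 44 genes was 1747, 957 and 1520.3 in knockout treated cells, against 2558, 1649.5 and 2143 in knockout untreated cells. It was 1870.1, 1086 and 1443 in control treated cells, against 2368, 1258 and 1806 in control untreated cells. These levels are lower in the treated array of every date in both genotypes. Because they mix genes with different probes, they describe the arrays and not the amount of any transcript.

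Other probe sets of the same genes gave a partial check. Of the 83 passing probe sets, 73 had a change below 0 in knockout cells and 13 fell, with 0 that rose. In control cells 58 were below 0 and 1 fell. The matching shares over all passing probe sets are not given here, so these counts are not set against a background. For 29 genes there were 39 further passing sets, and 30 of these had the sign of the set that stood for the gene in knockout cells, against 24 in control cells. Probe sets of 1 gene share its transcript and are not replicates.

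Whether the response differed between genotypes was tested as the difference of the 2 treatment responses. The fit gave 0 genes past the threshold among the 44 and 0% of all 11815 genes by limma, and 0 of the 44 in every alternative that was run. At an unadjusted p under 0.05 there were 3 of the 44, all with a lower response in knockout cells (6.82%), against 1.28% of all genes. The 3 were Nolc1 (-1.09 ± 0.40, 95% interval -1.98 to -0.20), Gnl3 (-1.10 ± 0.46, -2.13 to -0.07) and Srm (-1.14 ± 0.45, -2.14 to -0.14). Date 2, with its high 3' to 5' ratios, weighed most in all 3. Their changes on that date were -1.95, -1.34 and -2.37 in knockout cells, each the lowest of the dates. In control cells they were 0.21, 0.75 and -0.14, each the highest of the dates. The knockout response was the lower for 36 of the 44 genes (81.8%), against 46.4% of all genes, and the median difference was -0.40 against 0.03. All 8 genes that fell in treated knockout cells were among the 36. With single dates left out, the median difference lay between -0.53 and -0.14, and 35 or 36 genes were below 0. The 95% interval of a difference reached a median of 0.93 log2 units to either side over all genes, so the data do not show that the genotypes respond alike, and the larger count in knockout cells is not shown to be a difference between them.

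Comparing genotypes at the same treatment gave 0 calls among the 44 genes by limma in either state. In untreated cells 0.0169% of all genes were past the threshold, and 12 of the 44 had a knockout value below the control value (27.3%), against 50.7% of all genes. The median was 0.14 against 0.00 over all genes. The knockout arrays lay entirely below the control arrays for 1 gene (2.27%), against 2.32% of all genes, and 4 genes were lower on every date (9.09%), against 13.6%. At an unadjusted p under 0.05, 0 of the 44 were lower in knockout cells and 1 was higher, Rrp9, against 1.63% and 0.626% of all genes. In treated cells 0.0592% of all genes were past the threshold, and 26 of the 44 had a lower knockout value (59.1%), against 48.4% of all genes, with a median of -0.16 against 0.02. The knockout arrays lay entirely below the control arrays for 7 genes (15.9%), against 3.69% of all genes, and 14 genes were lower on every date (31.8%), against 15.5%. At an unadjusted p under 0.05, 9 of the 44 were lower in treated knockout cells (20.5%), against 4.6% of all genes, and 0 higher. The largest of these among the genes described above were Gnl3 (-1.10 ± 0.33), Tsr1 (-1.09 ± 0.33), Srm (-0.99 ± 0.32), Heatr1 (-0.94 ± 0.24) and Dkc1 (-0.78 ± 0.22), all with a limma adjusted p of 0.351 or above. On date 2, with its high 3' to 5' ratios, Gnl3, Tsr1, Srm and Heatr1 were at -2.22, -2.28, -1.90 and -1.49. On dates 1 and 3 these genes lay between -0.78 and -0.21. The knockout treated arrays enter this comparison and the treatment comparison in knockout cells alike, so the values are not independent.

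Further genes of the pathway, taken from a list of 113 ribosome biogenesis genes outside the 45, also had mostly lower values with treatment in knockout cells. This list too was made with earlier results of these data known, so it is not an independent check. Of 110 tested, 11 fell in treated knockout cells (10%) and 0 rose, with 91 below 0 (82.7%) and a median of -0.39; of all genes 4.21% fell and 51.8% were below 0. The 4 with the lowest values were Krr1, a small-subunit processome protein (-1.27 ± 0.29), Shq1, an assembly factor of H/ACA particles (-1.18 ± 0.30), Nifk, a nucleolar RNA-binding protein (-1.16 ± 0.21), and Ruvbl2, an ATPase that helps assemble snoRNPs (-1.10 ± 0.27). Their limma adjusted p were 0.0213, 0.0364, 0.0103 and 0.0315. In treated control cells 1 of the 110 fell, the ATPase partner Ruvbl1 (-1.04 ± 0.24, limma adjusted p = 0.0322). That is 0.909%, below the 2.51% of all genes that fell, while 70 were below 0 (63.6%, against 53.6%) and the median was -0.13.

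Ruvbl1 and Krr1 showed different patterns across arrays. Ruvbl1 read 2838, 1360.2 and 2564 on knockout treated arrays, against 5131, 2748 and 4644 on knockout untreated arrays, and 3173, 956 and 2260.4 on control treated arrays, against 5115, 3059.6 and 3868 on control untreated arrays. It fell in both genotypes. Krr1 read 984, 1471 and 1216 on knockout treated arrays, against 2826, 2881 and 3122 on knockout untreated arrays, and 1475, 4122 and 2097 on control treated arrays, against 3429, 3680.0 and 2960.4 on control untreated arrays. Its knockout groups were far apart and its control groups overlapped.

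Cytosolic ribosomal protein genes, which encode the structural parts of the ribosome, were centred near 0. Of 47 tested, 2 fell and 1 rose in treated knockout cells, with a median of 0.03 and 21 below 0 (44.7%, against 51.8% of all genes). The 4.26% that fell is close to the 4.21% of all genes. In control cells 0 fell and 1 rose, where 2.51% of all genes fell and 4.05% rose, with a median of 0.11. Among 13 tested genes of rRNA gene transcription, 1 fell in treated knockout cells (7.69%, against 4.21% of all genes), Polr2f, a subunit shared by all 3 RNA polymerases (-1.18 ± 0.31, limma adjusted p = 0.0380). It read 1333, 623 and 1017 on knockout treated arrays, against 2225, 1875 and 2417 on knockout untreated arrays, which did not overlap.

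**Figure D4:**
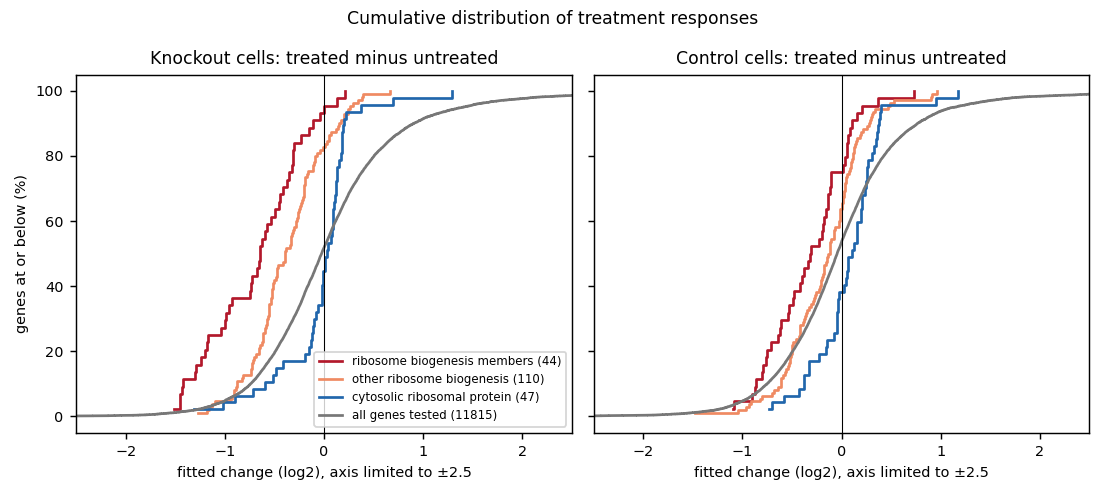
Cumulative share of genes (%) at or below each fitted treatment response (log2, axis limited), in knockout cells (left) and control cells (right), for the 44 ribosome biogenesis genes, 110 other ribosome biogenesis genes, 47 cytosolic ribosomal protein genes and all 11815 genes tested. The curve of the 44 genes lies left of the curve of all genes, with medians of -0.64 against -0.02 in knockout cells and -0.31 against -0.04 in control cells, and the ribosomal protein curve crosses 50% near 0.

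Of 11 tested genes of the MYC network, 1 rose in treated knockout cells and 0 fell, and with 6.46% of all genes rising a single gene does not set the list apart. That gene, Mxd1, encodes a protein that competes with MYC for their common partner MAX and represses E-box genes. It read 3329.5, 649 and 1865 on knockout treated arrays, against 637, 236 and 783 on knockout untreated arrays. It read 2702, 428 and 2001 on control treated arrays, against 615, 340.0 and 786 on control untreated arrays. Treated arrays were the higher within each date in both genotypes, and the change was 1.67 ± 0.34 in knockout cells (limma adjusted p = 0.0141) and 1.26 ± 0.34 in control cells (limma adjusted p = 0.0552).

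Myc itself did not pass the threshold. It read 4346, 1474 and 3173 on knockout treated arrays, against 4006, 4252 and 3637 on knockout untreated arrays. It read 5813, 4527 and 4365 on control treated arrays, against 4008, 3852 and 2659 on control untreated arrays. The knockout treated array of date 2 was the lowest of the 12, and the control treated arrays were above the control untreated arrays. The changes were -0.53 ± 0.33 in knockout cells (limma adjusted p = 0.333) and 0.49 ± 0.33 in control cells (limma adjusted p = 0.412). Their difference was -1.03 ± 0.46, with an unadjusted limma p of 0.0498 and an adjusted p close to 1.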

How the data were processed

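Total RNA of 12 samples was hybridised to 1-colour Affymetrix mouse arrays. The deposited values are intensity signals; per the submitters' processing notes, the authors computed them with MAS5. Each array's 2% trimmed mean is close to 500, and the version of MAS5 is not given in the sources used here. Signals were analysed as log2(intensity + 13), 13 being the 20th percentile of all values, in R 4.3.3 with limma 3.58.1 (lmFit and eBayes, two-sided, Benjamini-Hochberg over all genes, threshold 0.05). The fit held all 12 arrays, 4 groups and the array date as a block. To pass the filter, a probe set needed a signal over 70.5 (the median over the table) on 3 or more arrays. Of 45101 probe sets, 34945 carried 1 gene symbol, 932 several and 9160 none; only the first kind was used. The passing set with the highest mean stood for each gene, and sets ending _x_at or _s_at stood only where no other passed. Changes are on the log2(intensity + 13) scale, which understates those of dim genes.

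Array date served as the block because the titles place 1 array of each group on each date. Deviations from group means correlated at 0.359 to 0.754 between arrays of 1 date (18 pairs) and at -0.666 to 0.401 between dates (36 pairs). Subtracting group means lowers the values between dates by construction, and the 2 ranges overlap. These correlations therefore do not show that samples were paired beyond the shared array date. Genes named are those past the threshold in any comparison and the 2 with the highest mean in each role group, besides Polr1b, Pes1, Bop1, Gnl2, Rrp9 and Ltv1, chosen after their values were seen; of other lists, those past the threshold, at most 4 per comparison, and Myc. The members and lists were chosen with earlier results of these data known. Promoters and their motifs came from RefSeq tables (GRCm38.p6) read with Python 3.11.15; figures were drawn with matplotlib 3.10.9. Alternatives covered the block, groups, pseudocount, filter, probe sets, scaling, variance trend and leaving out arrays or dates.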

Additional observations from a re-analysis of the deposited data

How the results depend on the processing

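The count of 8 genes falling in treated knockout cells depended on the processing, while 39 to 42 of the 44 genes had a change below 0 there in every alternative run, with medians of -0.73 to -0.51. It was 1 (Dkc1) without the replicate block of array date, 4 with only the 2 groups compared, 13 with a pseudocount of 64, 14 with signal above the median on all 12 arrays, 14 with the mean of a gene's probe sets and 14 with an intensity trend in eBayes. It was 12 after quantile normalization, 11 with median-centred arrays and 8 with a pseudocount of 1. Leaving out single arrays gave 3 to 13: 3 without knockout treated or untreated replicate 3, 4 without knockout untreated replicate 2 and 13 without control treated replicate 2. Leaving out dates gave 0 to 11. The share of all genes that fell in each alternative is not given here, and the filter alternatives also changed which genes were tested. A higher or lower count is therefore not a result about the 44 genes. Dkc1, Nhp2 and Wdr12 were past the threshold in all 12 single-array fits.

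The count of 1 in control cells was 0 without the replicate block, 0 with 2 groups, 2 with a pseudocount of 64, 0 with no filter, 2 above the median on all 12 arrays, 0 with mean probe sets and 2 with the trend. It was 0 to 2 without single arrays: 0 without any 1 of the control treated arrays, without control or knockout untreated replicate 1 or 3, and 2 without knockout treated replicate 2. It was 0 to 3 without single dates, and 4 without date 2 on median-centred arrays, an alternative chosen after seeing the data, as were 2 other choices of probe set, which gave 11 and 7 in knockout and 1 in control cells. Without the block the median stayed at -0.64 in knockout and -0.31 in control cells. The 3 other comparisons had 0 of the 44 in every alternative. For the control counts, too, the share of all genes in each alternative is not given here. The cause of these shifts was not tested. No gene that fell with treatment in knockout cells, nor Nhp2 in control cells, reversed direction there in any alternative. The number of the 44 genes below 0 did vary, from 31 to 37 for treatment in control cells. It was 28 to 40 for the difference in response. For knockout against control it was 25 to 32 in treated and 11 to 16 in untreated cells. Signal near the filter limits Rrp9, which passed it on 9 of 12 arrays.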
